A study of Mus musculus with 4 samples.

Results

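The regions described here are the autosomal peaks of a PML-body chromatin profile that lay between genes at the distances typical of enhancers. A listed peak was taken when its midpoint was outside every protein-coding gene body and more than 10 kb, but at most 50 kb, from the nearest protein-coding gene start. This rule gave 3693 of the 26496 listed peaks (13.9%). The start of a gene is the 5′ end of its GENCODE M21 model, and positions are those of mm10, the mouse assembly also named GRCm38. Peaks in an interval of 4 Mb on distal chromosome 4 were not used.

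PML bodies are small nuclear structures built around the PML protein, and they are known for holding SUMO-modified proteins and for lying next to active chromatin. In the assay, ALaP-seq, the peroxidase APEX is carried on PML and tags nearby chromatin with biotin when hydrogen peroxide is added. The series holds 4 samples of E14 mouse embryonic stem (ES) cells, all carrying the same APEX-PML knock-in. The 2 samples labelled H2O2+ received hydrogen peroxide, and the 2 labelled H2O2- did not and served as the negative control. All were grown with leukemia inhibitory factor (LIF), with CHIR99021, which inhibits GSK3, and with PD0325901, which inhibits MEK. The labels do not say how many knock-in clones were used. The deposited peak list joins the replicates and gives only a chromosome, a start and an end for each peak, with no height, no sample and no score. Whether the H2O2- samples entered the list is unknown here, so a listed peak is not shown to be absent from the controls. H2O2+ samples could therefore not be set against H2O2- samples here, no spread between replicates exists, and the depth behind a peak is unknown. The values below count peaks and sequence. Their 95% intervals (exact Clopper-Pearson for shares, exact Poisson for densities) cover counting error only, and neighbouring peaks are not independent.

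Enhancers are stretches of DNA that raise transcription of a gene from a distance, often many kilobases away. In mouse ES cells many of them are bound together by OCT4, SOX2, NANOG, KLF4 and ESRRB, and dense groups of such sites near genes of cell identity are called super-enhancers. OCT4 reads an octamer, and OCT4 with SOX2 reads a composite of a Sox site followed by part of an octamer. ESRRB reads an extended nuclear receptor site. STAT3, which acts downstream of LIF, reads a palindrome.

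The sequences that follow show what such words look like inside peaks at enhancer distance from genes of the pluripotency, super-enhancer, FGF, LIF and WNT lists. Each is the central 200 bp of a peak, 5′ to 3′ on the plus strand, read from the RefSeq GRCm38.p6 genome and named by its nearest protein-coding gene. Capitals mark an octamer (ATGCAAAT), the core of the Sox-Oct composite (TTGTNATGC) or the ESRRB word (TCAAGGTCA), on either strand.
Spry2, chr14:105859214-105859413: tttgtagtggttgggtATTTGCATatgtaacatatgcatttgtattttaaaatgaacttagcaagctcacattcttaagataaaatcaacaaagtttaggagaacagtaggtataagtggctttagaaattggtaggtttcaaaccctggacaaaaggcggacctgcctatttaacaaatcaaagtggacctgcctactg
Klf13, chr7:63957119-63957318: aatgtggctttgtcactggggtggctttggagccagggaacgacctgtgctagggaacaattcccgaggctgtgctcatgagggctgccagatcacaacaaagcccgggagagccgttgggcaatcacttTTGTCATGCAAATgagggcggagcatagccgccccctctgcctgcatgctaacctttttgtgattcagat
Sall1, chr8:89003605-89003804: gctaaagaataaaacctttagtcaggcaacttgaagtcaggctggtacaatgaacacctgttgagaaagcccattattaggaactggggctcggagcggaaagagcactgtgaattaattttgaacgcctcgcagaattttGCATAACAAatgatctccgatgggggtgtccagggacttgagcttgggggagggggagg
Inhbb, chr1:119398763-119398962: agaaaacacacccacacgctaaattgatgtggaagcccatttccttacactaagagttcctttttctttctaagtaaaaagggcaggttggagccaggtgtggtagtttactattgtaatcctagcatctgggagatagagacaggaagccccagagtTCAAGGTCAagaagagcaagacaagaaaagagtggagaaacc
Fgfr1, chr8:25465507-25465706: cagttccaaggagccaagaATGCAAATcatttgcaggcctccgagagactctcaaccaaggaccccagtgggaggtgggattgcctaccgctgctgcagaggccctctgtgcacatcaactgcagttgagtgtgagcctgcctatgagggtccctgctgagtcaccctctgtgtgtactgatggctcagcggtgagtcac
Klf4, chr4:55519729-55519928: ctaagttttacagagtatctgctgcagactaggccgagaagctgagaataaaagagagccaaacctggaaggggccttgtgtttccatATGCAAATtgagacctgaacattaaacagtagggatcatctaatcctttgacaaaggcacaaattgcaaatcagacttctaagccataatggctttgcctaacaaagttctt
Tcf7l2, chr19:55712777-55712976: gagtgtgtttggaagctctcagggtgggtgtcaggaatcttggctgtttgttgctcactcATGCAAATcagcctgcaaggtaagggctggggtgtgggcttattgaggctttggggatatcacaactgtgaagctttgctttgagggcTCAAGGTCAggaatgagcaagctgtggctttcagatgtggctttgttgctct
Inhbb, chr1:119388831-119389030: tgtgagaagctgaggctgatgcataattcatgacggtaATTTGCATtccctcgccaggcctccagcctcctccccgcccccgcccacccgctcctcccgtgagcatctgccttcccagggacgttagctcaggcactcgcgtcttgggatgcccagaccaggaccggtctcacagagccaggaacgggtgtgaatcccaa
The Klf13 window holds a composite core that runs into a full octamer on the same strand. The Sall1 window holds the composite core on the minus strand, and the Spry2 window and the second Inhbb window hold the octamer on that strand. The Tcf7l2 window holds an octamer and an ESRRB word. Of 10 windows of these lists that held one of the words, these 8 were the widest peaks, and a match of letters does not show that a protein was bound. The printed windows were picked because they hold a word. Over all 3693 peaks the octamer was in 3.60% of windows, the composite core in 2.73% and the ESRRB word in 2.03%. Whether the words are commoner in peaks of these lists than in other peaks was not tested.

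Peaks at enhancer distance were sparser than peaks close to gene starts and denser than peaks far from any start. The intergenic sequence at over 10 to 50 kb covered 318 Mb, 13.3% of the ungapped autosomes, and held 11.6 peaks per Mb (95% interval 11.26 to 12.01). Intergenic sequence beyond 50 kb held 3.54 peaks per Mb (3.42 to 3.66), so that the density at enhancer distance was 3.28 times as high (3.13 to 3.44). Intergenic sequence within 10 kb of a start held 38.5 peaks per Mb.

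Within the class, density fell gradually with distance. In steps of 5 kb it was 13.03 peaks per Mb at 10 to 15 kb, 12.1 at 20 to 25 kb, 11.4 at 30 to 35 kb and 8.43 at 45 to 50 kb. No step was seen at the outer bound: the next 5 kb, at 50 to 55 kb, held 9.12 peaks per Mb. The inner side was steeper, with 14.5 peaks per Mb at 5 to 10 kb and 59.7 in the first 5 kb. The median distance to the nearest start was 23.2 kb, with quartiles of 15.8 and 33.5 kb. The peaks just inside the bounds lay 10002 bp from Atoh7 and 49952 bp from Gpc5. The peaks just outside lay 9994 bp from Ubtf and 50016 bp from Plekhg6.

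**Figure D1:**
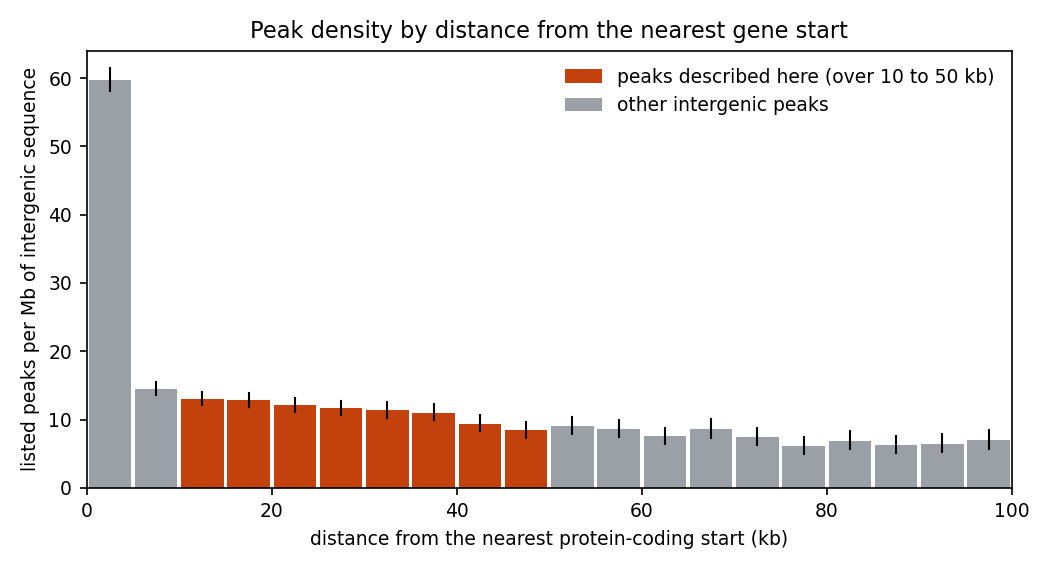
Listed autosomal peaks per Mb of intergenic sequence (y axis) in steps of 5 kb from the nearest protein-coding start (x axis, kb); orange bars are the peaks at enhancer distance, grey bars other intergenic peaks, and lines are exact Poisson 95% intervals. Density drops steeply after the first 5 kb (59.7 peaks per Mb) and then slopes from 13.03 at 10 to 15 kb to 8.43 at 45 to 50 kb.

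Density was compared with that beyond 50 kb on each autosome. Density at enhancer distance ran from 7.35 peaks per Mb on chromosome 7 to 16.6 on chromosome 13, with a median of 11.2 over the 19 autosomes. It exceeded the density beyond 50 kb on 19 of 19 autosomes, by a ratio of 2.33 to 5.68. Chromosome 13 was also the densest autosome beyond 50 kb, with 7.14 peaks per Mb, and had the lowest ratio between the classes.

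**Figure D2:**
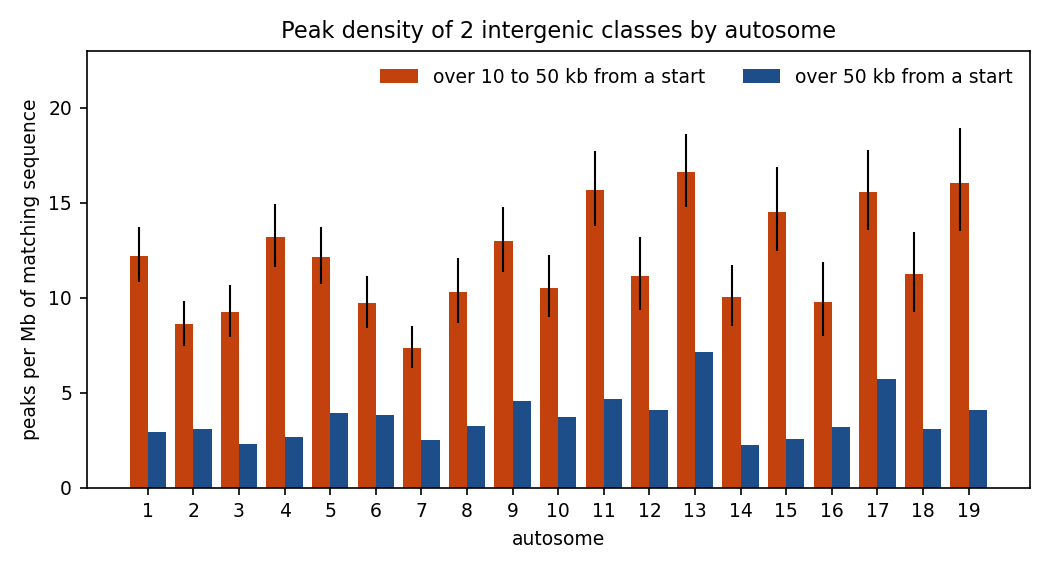
Peaks per Mb of matching intergenic sequence (y axis) on each of the 19 autosomes (x axis) for peaks over 10 to 50 kb from a start (orange, with exact Poisson 95% intervals) and peaks over 50 kb from a start (blue). The orange bar is the taller on every autosome, with values between 7.35 and 16.6.

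The median width of the peaks lay between that of peaks in gene bodies and those of the other classes. Their median width was 212 bp (207 to 219), with quartiles of 146 and 339 bp, against 226 bp (223 to 228) for all other autosomal peaks. The median was below that of the other peaks on 14 of 19 autosomes. Intergenic peaks at 1 to 10 kb and beyond 50 kb both had a median of 222 bp, and peaks within 1 kb of a start had 251 bp. Peaks in gene bodies, over 1 kb from a start, had 208 bp (204 to 212). Of the peaks at enhancer distance 385 (10.4%) were wider than 500 bp, against 8.98% of those in gene bodies.

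Their base composition lay between promoter and bulk sequence. The central 200 bp had a median GC content of 51.0%, against 65.0% at promoter peaks, 49.5% beyond 50 kb and 43.0% in 1578934 tiles of 200 bp that covered the same intergenic sequence outside peaks. The ratio of observed to expected CpG had a median of 0.228, against 0.810 at promoter peaks and 0.148 in the tiles. CpG-rich windows (GC above 50% and a ratio above 0.6) made up 9.37% of the peaks, or 346, against 77.6% of promoter peaks, 5.75% of peaks beyond 50 kb and 0.653% of tiles. Windows at least 50% soft-masked as repeats made up 19.5%, or 719 peaks, against 25.2% beyond 50 kb and 34.3% of tiles. A near-identical copy elsewhere in the genome (95% identity over 80% of the central 150 bp) was found for 359 peaks (9.72%). This share was 13.7% beyond 50 kb, 6.69% at 1 to 10 kb and 4.46% in all other autosomal peaks.

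Words of pluripotency factors had higher shares in these windows than in the surrounding sequence. The Sox-Oct composite core was in 101 of 3693 windows (2.73%, 2.23 to 3.31%), against 0.507% of tiles and 0.406% of tiles weighted to the GC content and repeat share of the peaks. The share exceeded the tiles' share on 19 of 19 autosomes. The octamer, which shares the letters ATGC with the composite core and can overlap it, was in 133 windows (3.60%), against 1.63% of tiles and 0.867% of weighted tiles. The ESRRB word was in 75 windows (2.03%), against 0.481% of tiles and 0.4998% of weighted tiles. The KLF word (GGGTGTGG) was in 197 windows (5.33%), against 1.38% of tiles and 2.46% of weighted tiles. The STAT word (TTCCNGGAA) was in 38 windows (1.03%), against 0.547% of tiles and 0.606% of weighted tiles. At least 1 of these 5 words stood in 518 windows (14.0%, 12.9 to 15.2%), and at least 2 stood in 25. The same share was 15.4% in peaks beyond 50 kb, 13.4% in gene bodies, 12.3% at 1 to 10 kb and 5.24% at promoters.

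The same words were not confined to this distance. Peaks beyond 50 kb held the composite core in 3.84% of windows (3.22 to 4.56%), the octamer in 5.21% and the ESRRB word in 1.91%. The share at enhancer distance was above that beyond 50 kb on 6 of 19 autosomes for the composite core and on 4 for the octamer. Promoter peaks held the composite core in 0.316% of windows. Inside the class the composite core was in 2.44% of windows at 10 to 20 kb, 2.71% at 20 to 30 kb, 2.84% at 30 to 40 kb and 3.53% at 40 to 50 kb, with overlapping intervals. With the peaks divided into 4 groups by width, from the narrowest to the widest, the share was 2.16, 2.80, 2.92 and 3.06%.

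Composite cores were unevenly spread between repeats and other sequence. Among the 719 mostly soft-masked windows 45 held the core (6.26%, 4.601 to 8.285%), against 56 of the 2974 mostly unmasked windows (1.88%, 1.43 to 2.44%). In tiles the order was the other way, 0.338% of mostly masked and 0.596% of mostly unmasked tiles. Near-identical copies made up 17 of the 45 masked windows with the core and 3 of the 56 unmasked ones. The ESRRB word was in 3.62% of masked and 1.65% of unmasked windows, and the STAT word in 0.417% and 1.18%. Reads had been mapped to a repeat-masked genome, per the series' design text, and how that step acted on peaks in repeats was not tested. The windows with a composite core had a median GC content of 43.5% and lay nearest to 99 different genes.

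Among other words, the GC box and the ETS word were rarer in these peaks than in promoter peaks. The GC box (GGGCGGG), read by SP and KLF proteins, was in 7.91% of windows, against 37.2% of promoter windows and 3.64% of weighted tiles. The ETS word (CCGGAAG) was in 4.06%, against 14.1% at promoters and 1.25% of weighted tiles. The CTCF core word (AGGGGGC) was in 5.74%, against 3.82% of weighted tiles, and the TCF/LEF word (ATCAAAG), read by the effectors of WNT signalling, in 5.20%, against 2.72%. The YY1 word (AAGATGGC) was rarer than in the tiles, at 1.06% against 2.15% weighted. Words of stress regulators differed among themselves. The antioxidant response word (TGACNNNGC), read by NRF2, was in 10.5% of windows (9.54 to 11.5%), against 7.84% of weighted tiles, and its share exceeded that of the unweighted tiles on 19 of 19 autosomes. This share was not particular to the class: it was 9.97% at promoters, 9.95% in gene bodies and 11.4% beyond 50 kb. The heat shock element (GAANNTTC) was in 4.77%, against 4.50% of weighted tiles, and the p53 half-site (GGGCATGTC) in 0.190%, against 0.192%.

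**Figure D3:**
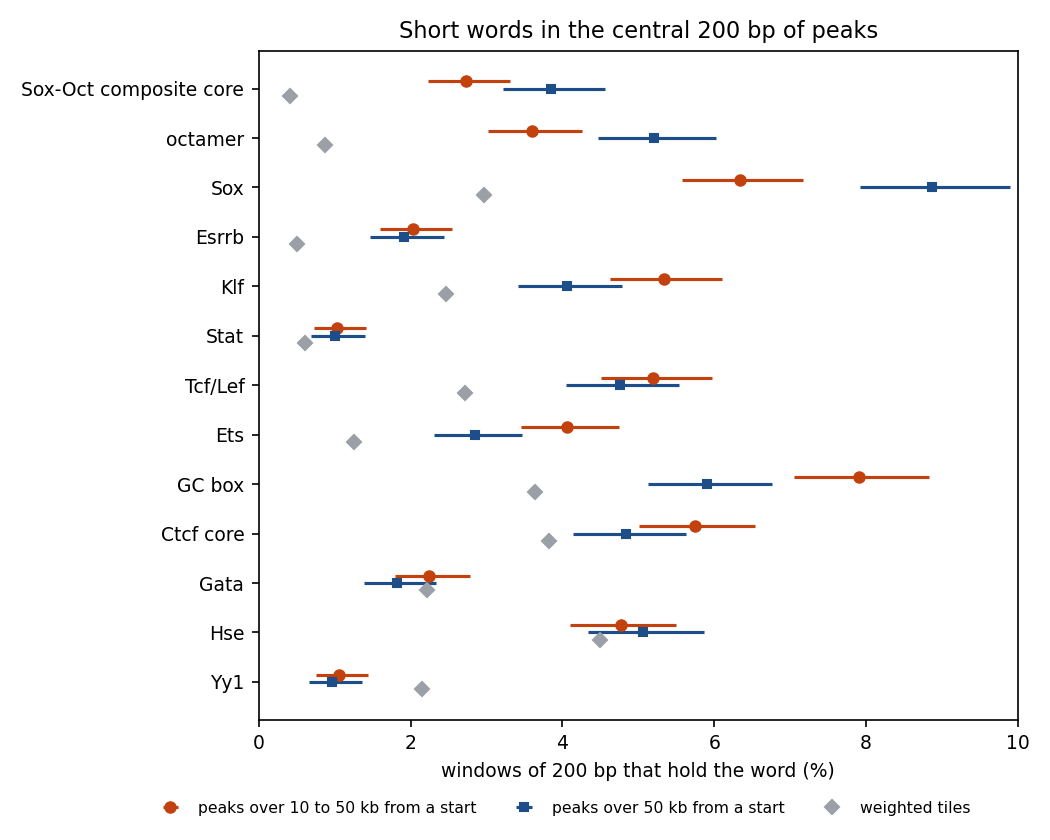
Share of central 200 bp windows that hold a short word (x axis, percent) for 13 words (y axis) in peaks over 10 to 50 kb from a start (orange, exact 95% intervals), peaks over 50 kb (blue, exact 95% intervals) and tiles of the 10 to 50 kb sequence weighted to the orange peaks' GC content and repeat share (grey). The composite core, octamer, ESRRB and KLF words sit well to the right of the tiles, while the Gata, heat shock and YY1 words do not.

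The genes closest to these peaks often carried a peak at their own promoter. Of the 3693 peaks, 2002 (54.2%, 52.6 to 55.8%) had a nearest gene with a listed peak within 1 kb of its start, although such genes are nearest to 33.5% of the sequence at enhancer distance. Density was 18.8 peaks per Mb next to genes with a promoter peak, against 8.01 next to genes with none, and was higher next to the first kind on 19 of 19 autosomes. At least 1 peak at enhancer distance was nearest to 2089 of the 13215 autosomal genes with any such sequence (15.8%). This share was 22.7% of the 4650 genes with a promoter peak and 12.1% of the 8565 without. Peaks lay upstream of the nearest start in 69.7% of cases, and 70.6% of the sequence at this distance is upstream. Nearness does not show that a peak acts on the gene.

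Genes of pluripotency and of ES cell super-enhancers had a median of 1 such peak per gene in both lists, and up to 8. Of 28 core pluripotency genes with sequence at enhancer distance, 17 had at least 1 peak, beside 15.8% of all genes. Their 53 peaks came to 48.6 per Mb (36.4 to 63.5), 4.18 times the density over all genes. Of 34 genes reported near super-enhancers, 25 had a peak. Their 82 peaks came to 59.5 per Mb (47.3 to 73.9), 5.12 times the density over all genes. In both lists a gene had a median of 40 kb of sequence at this distance, against 19.6 kb over all genes. The shares of genes with a peak are therefore not like for like. Most genes of both lists had a promoter peak, and density next to all genes with a promoter peak was 18.8 per Mb. Both lists share 18 genes and are not separate evidence, and they were chosen with earlier results of these data known.

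The number of peaks differed widely among these genes. Tbx3, a T-box factor of naive pluripotency, had 8 peaks, of which 3 lay upstream at 11.95 to 13.75 kb and 5 downstream at 16.5 to 42.4 kb, none wider than 404 bp. Jarid2, a PRC2 partner, had 8 peaks, all upstream at 10.8 to 41.2 kb, and one of them was 1139 bp wide. Epha2, an ephrin receptor, had 7 peaks packed upstream between 12.8 and 27.8 kb. Sall1, a zinc-finger factor, had 7 peaks, the widest 619 bp. Klf5 and Otx2 had 6 each, with widest peaks of 826 and 1153 bp. Zfp281 and Foxd3, both regulators of the exit from pluripotency, had 5 each, and Mycn had 5. Sox2 had 3 peaks, all downstream at 14.1 to 18.2 kb, Nanog had 3 at 37.0 to 39.8 kb upstream, and Klf4 had 2 at 12.6 and 17.5 kb downstream. Pou5f1, which encodes OCT4, had 1 peak of 176 bp, but only 7.96 kb of sequence is nearest to it at this distance. No peak at enhancer distance was nearest to Esrrb, Nr5a2, Tet2, Dppa2 or Dppa4, each with 34.2 to 40 kb of such sequence.

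**Figure D4:**
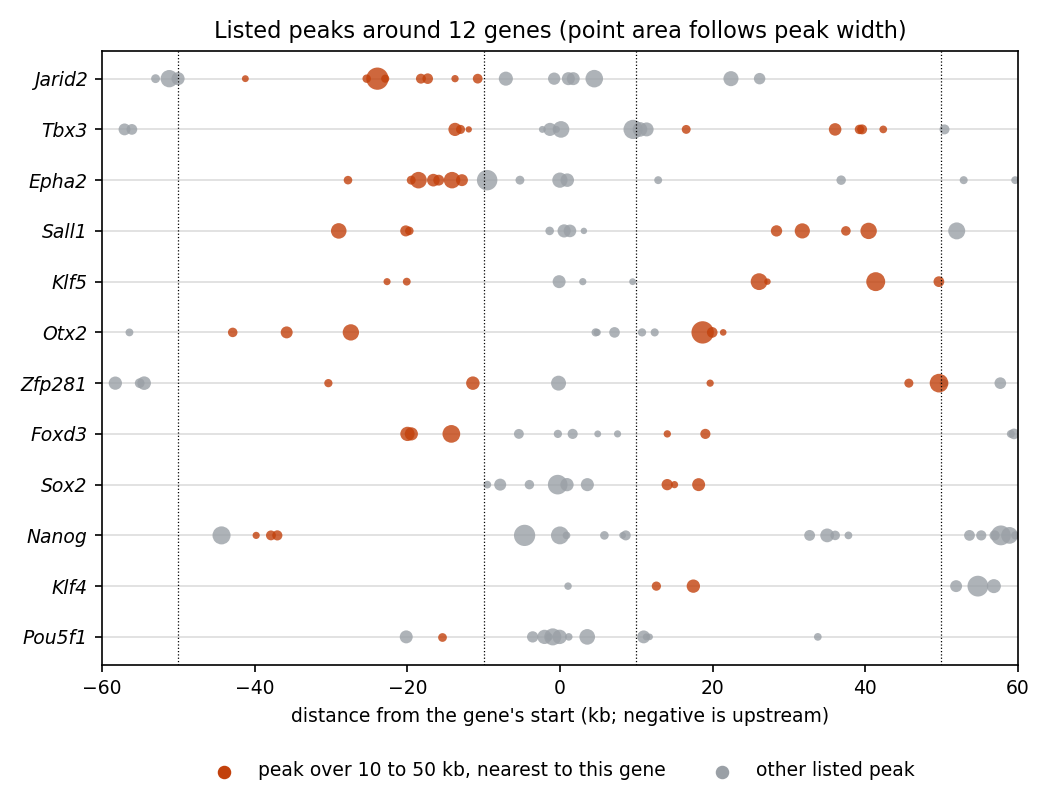
Listed peaks within 60 kb of the start of 12 genes (rows), by distance from the start along the gene's own direction (x axis, kb, negative is upstream); orange points are peaks at enhancer distance nearest to that gene, grey points all other listed peaks, and point area follows peak width. Jarid2 and Epha2 have their orange points upstream only, Sox2 and Klf4 downstream only, and Tbx3, Klf5 and Otx2 on both sides.

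Genes of the FGF-ERK, LIF-STAT3 and WNT lists, pathways that the culture medium acts on, had between 24.8 and 29.5 peaks per Mb. Density was 11.6 per Mb over all genes, of which 15.8% had a peak, and 18.8 next to genes with a promoter peak. Sequence per gene at this distance had a median of 41.2, 38.3 and 40 kb in these lists, against 19.6 kb over all genes. The shares of genes with a peak are therefore not like for like. Of 20 genes of FGF-ERK feedback, 10 had a peak, at 29.5 peaks per Mb (19.4 to 42.9): Spry4, a feedback inhibitor of receptor tyrosine kinase signalling, had 8, Spry2 had 4, and Spry1 and Myc had 3 each. Of 17 genes of LIF-STAT3 signalling, 9 had a peak, at 29.3 per Mb (17.3 to 46.2). The kinase gene Pim1 had 5, and Il6st, which encodes the shared receptor subunit gp130, had 3, one of them 1153 bp wide. Socs3, the feedback inhibitor, and Klf4 had 2 each. Of 17 WNT pathway genes and targets, 10 had a peak, at 24.8 per Mb (14.5 to 39.7), with 4 at the TCF gene Tcf7l2 and 3 at Myc. In a further list, of Nodal, BMP and Id function, 11 of 17 genes had a peak, at 26.5 per Mb (14.8 to 43.7). Its median sequence per gene was 37.5 kb. The 18.8 per Mb next to genes with a promoter peak lies inside the intervals of the LIF-STAT3, WNT and Nodal lists. Smad7, Smad6, Id2 and Bmp4 had 2 peaks each. The widest peak of this list was 977 bp, near the inhibitory SMAD gene Smad7. Genes recur between lists: Spry4, Klf4, Nodal and Id3, for example, are also in the super-enhancer list.

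Stress and lineage genes gave no common picture. Over all genes 15.8% had a peak, a share that also depends on how much sequence is nearest to each gene. Of 15 heat shock genes, 10 had a peak, at 45.3 per Mb (24.8 to 76.0), but these were 14 peaks in only 0.309 Mb, and 4 of them were at least as wide as the list's median. The genes with most were Hsf2 and Dnajb6 (3 each), while Hspb1, a small heat shock protein gene, had the widest, at 552 bp. Of 15 genes of the oxidative stress response, 3 had a peak, at 11.9 per Mb (3.87 to 27.8), close to the 11.6 over all genes: Keap1 and Txnrd1 had 2 each and Sod1 had 1. Of 18 p53 targets, 4 had a peak, at 22.8 per Mb (10.4 to 43.2), and 5 of the 9 peaks were at Cdkn1a, which encodes the cell cycle inhibitor p21. PML body components had a peak at 2 of 9 genes (Morc3 with 2 and Usp7 with 1), at 18.2 per Mb (3.76 to 53.2). DNA methylation genes had a peak at 0 of 6, which in 0.0939 Mb of sequence allows up to 39.3 per Mb. Ectoderm regulators had a peak at 8 of 17 genes (21.2 per Mb, 12.1 to 34.4), with Otx2 giving 6 of their 16 peaks and Sox1 giving 3. Mesoderm regulators had a peak at 3 of 17 (10.1 per Mb, 4.08 to 20.9), with 3 each at Eomes and Gsc. Endoderm and trophoblast regulators had a peak at 4 of 19 (12.7 per Mb, 5.82 to 24.2), with 3 each at Eomes and Tfap2c. Genes of differentiated tissues had a peak at 3 of 12 (9.51 per Mb, 1.96 to 27.8), with 1 each at Ttr, Cyp3a11 and Ptprc. Except for heat shock and ectoderm genes, the intervals of these lists hold the 11.6 over all genes.

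**Figure D5:**
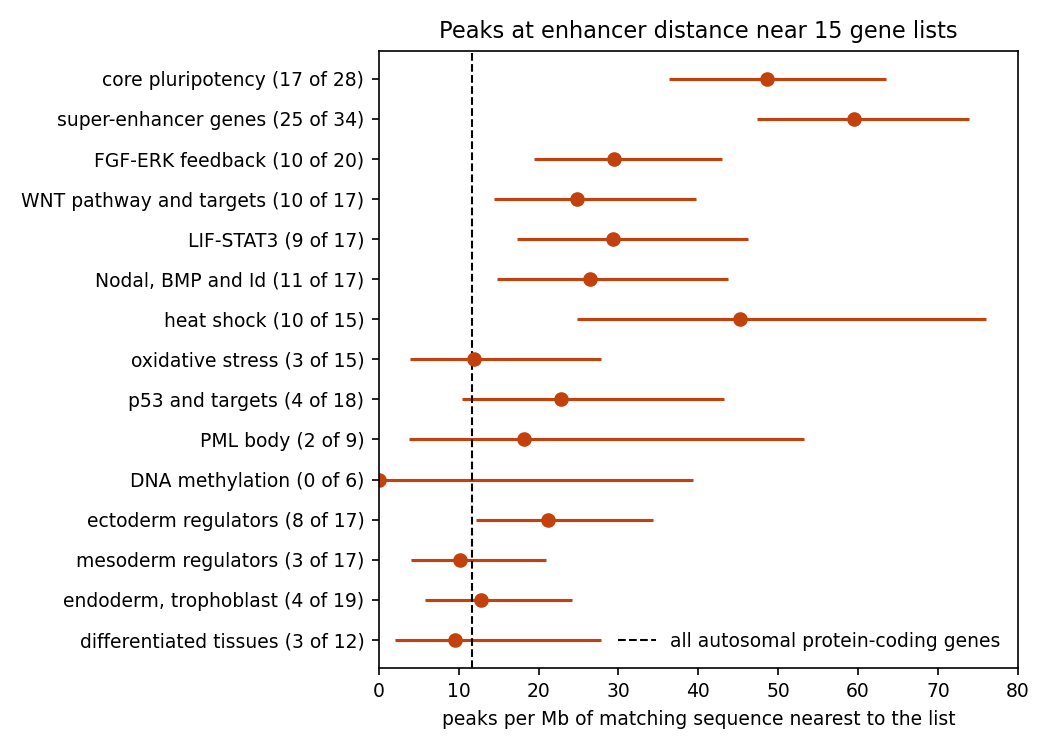
Peaks at enhancer distance per Mb of matching sequence nearest to the genes of each list (x axis; points with exact Poisson 95% intervals) for 15 gene lists (y axis), with genes that have a peak out of genes with sequence in brackets; the dashed line is the 11.6 per Mb over all autosomal protein-coding genes. Super-enhancer genes (59.5) and core pluripotency genes (48.6) lie farthest to the right, and oxidative stress genes (11.9) lie at the line.

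Peaks at enhancer distance overlapped most of the few regulatory elements recorded for mouse ES cells in this sequence. The RefSeq annotation holds 10 such elements, at 9 loci, whose record names ES cells, and 8 of them, at 7 loci, overlapped 21 peaks. At Sox2, a peak of 388 bp (chr3:34668388-34668775) lay inside SRR18, an enhancer active in ES cells, 18.2 kb downstream of the start. A peak of 751 bp (chr6:122662760-122663510) lay in an enhancer recorded as acting on both Nanog and Dppa3. Dppa3 is its nearest gene, at 36.7 kb. The region recorded as regulating Mir290a, a microRNA cluster gene of ES cells, held 7 peaks, of 141 to 791 bp, with 1 composite core and 1 STAT word among them. The Sall1 region held 4 peaks, among them the one whose sequence with a composite core is printed above. The Ranbp17 region held 5 peaks, the widest of 851 bp with an ESRRB and a STAT word. The promoter of the noncoding RNA gene Chaserr held 2 peaks. A promoter recorded as regulating Snhg11 and Snhg17 held 1, at 14.2 kb upstream of the Snhg11 start. No peak at enhancer distance overlapped the Cbfa2t2 region or a promoter recorded as regulating Bend4 and Bendr.

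Enhancers recorded from other tissues were overlapped as follows. Of 110 elements of the VISTA collection, tested in transgenic embryos, 23 overlapped a peak (20.9%, 13.7 to 29.7%), and of 77 other recorded enhancers 4 did (5.19%, 1.43 to 12.8%). The ES cell elements had a median length of 2818 bp, the VISTA elements 2637 bp and the others 820 bp. Their total lengths were 89.1 kb for 10 elements, 286.9 kb for 110 and 115.1 kb for 77. Some ES cell regions were thus far longer than the median, such as that of Sall1 (chr8:88986501-89018827). The long Mir290a, Ranbp17 and Sall1 regions held 7, 5 and 4 of the 21 peaks at ES cell elements. Longer elements have more room for a peak. All peaks at enhancer distance together covered 0.322% of the sequence. The elements were compared after the peaks had been seen, and 10 is a small number.

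Genes for transfer RNA, which RNA polymerase III transcribes from promoters inside the gene, had the highest share overlapped among the kinds of gene counted here. Of 147 tRNA genes of the RefSeq annotation in this sequence, 92 (62.6%, 54.2 to 70.4%) overlapped a peak. Those 92 genes were covered by 87 peaks, 2.36% of all peaks at enhancer distance, on 12 autosomes. Chromosome 13 held 64 of the 147 genes and 48 of the 92. Without it, 44 of 83 tRNA genes (53.01%, 41.74 to 64.07%) still overlapped a peak. The peaks at tRNA genes had a median width of 195 bp, and 2 of them had near-identical copies. The genes with most of them nearby were Zfp184, with 9, and Gpx5, with 6, while Hist1h4h, Hfe2 and Zfp213 had 5 each. Beyond 50 kb, 15 of 79 tRNA genes (18.99%, 11.03 to 29.38%) overlapped a listed peak, and within 10 kb 71 of 127 did (55.9%, 46.8 to 64.7%). The shares at other short RNA genes were lower: a peak came within 500 bp of the start of 14 of 243 snRNA genes (5.76%), 8 of 180 snoRNA genes (4.44%) and 9 of 235 microRNA genes (3.83%). For long intergenic noncoding RNA genes it was 119 of 1337 (8.90%). The tRNA genes were counted after groups of peaks beside them had been seen.

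Being intergenic with respect to protein-coding genes did not mean lying outside all annotation. The midpoints of 784 peaks (21.2%, 19.9 to 22.6%) fell in another annotated gene or within 1 kb of its start, against 23.7% of peaks beyond 50 kb. Within 1 kb of such a start lay 352 peaks, of which 164 were at long intergenic noncoding RNAs, 87 at pseudogenes and 20 at snRNA genes. These 352 were wider than the other 3341 (median 262.5 bp against 209 bp) with a CpG-rich share of 27.0% against 7.51%, and they held the composite core in 1.14% of windows, against 2.90%.

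Peaks at enhancer distance came in groups. The gap to the next listed peak of any class had a median of 5.27 kb, against 12.7 kb for peaks beyond 50 kb, and 66.5% of the peaks had a neighbour within just over 12 kb, the distance used for stitching enhancers, against 49.9%. Joined over gaps up to that distance, the peaks formed 2265 groups. In 709 groups there were at least 2 peaks, together 2137 (57.9%), and in 90 groups at least 5. Of the peaks beyond 50 kb, joined in the same way, 48.8% were in groups of at least 2. Their largest group held 44 peaks, against 26 at enhancer distance. Density at enhancer distance was 3.28 times as high, and gaps were measured to peaks of any class. Whether these peaks are grouped beyond what such density gives was not tested.

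The largest groups were of different kinds. The most peaks per nearest gene were the 28 at Prl2c3, of the prolactin family, and the 23 at C130026I21Rik, and 20 and 18 of these had near-identical copies. Likewise 12 of the 13 peaks at Dynlt1b had copies. At such loci peaks in different copies may rest on the same reads, and the counting by the authors in copies is not given in the sources used here. Genes whose peaks had no copies included the TGF-beta repressor gene Tgif1 with 12 peaks, Irf2bpl with 12, Ptma with 10 and Atf7ip with 9. Of the 10 peaks in the group at Tuba1a, 7 lay in or at the start of the noncoding gene 4930578M01Rik. The group at Zfp184 held 11 peaks, and the one at AU018091 and Nlrp12, over the microRNA region named above, held 10. St6galnac1 had 16 peaks, Fcgr1 had 14, Zfp184 had 11 and Gm21060 had 11. In all, 105 genes had 5 or more peaks.

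The widest peaks were mostly not at the genes named so far. One peak near Ccr1 spanned 12734 bp (chr9:123924523-123937256), with 54.5% of its central 200 bp soft-masked, and stood alone: the next was 1964 bp. That one (chr3:96328112-96330075), nearest to Fcgr1, lay over an snRNA gene, Gm24830. The peaks of 1536 bp near Trappc6b and 1424 bp near Mreg also lay over snRNA genes, Gm22973 and Gm24497. The peaks near Vmn2r87 (1623 bp) and Vmn2r90 (1438 bp), both vomeronasal receptor genes, had near-identical copies. The others were near Abt1 (1670 bp, over a tRNA gene), 2010315B03Rik (1619 bp), Mtcl1 (1413 bp, inside a VISTA enhancer) and Stoml1 (1361 bp). Of these 10 peaks none held an octamer, composite core, ESRRB or STAT word in its central 200 bp. Over all 3693 peaks the shares were 3.60, 2.73, 2.03 and 1.03%, so this does not set the widest peaks apart. The central 200 bp is also a small part of such wide peaks.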

How the data were processed

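ALaP-seq was run on 4 samples of mouse ES cells in 2 groups of 2. Trimming used Trimmomatic, mapping to repeat-masked mm10 used bowtie2 2.3.5.1, and bedtools removed blacklisted and greylisted regions, per the series' design text. Which program called the peaks, at what threshold, and how replicates were merged is not given in the sources used here. In their deposited peak list the authors give positions and no height, and 0 other columns of values per sample were used. Depth is unknown. Signal tracks were not analysed here.

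Peaks were placed by their midpoint against 20807 autosomal protein-coding genes of GENCODE M21, with 1 start each. Near-identical copies were sought with minimap2 2.31. For word shares, tiles of 200 bp outside peaks were weighted to the peaks' distribution over GC content (20 bins) and repeat masking, using bins with at least 200 tiles, which held 3673 of the 3693 peaks. Counting used Python 3.11.15, numpy 2.4.6 and scipy 1.17.1, and was tested on simulated data. Named genes are those with most peaks (12), those nearest to the 10 widest peaks, and up to 4 per list with most peaks. One of these genes is not reported here. Further genes of the lists, the genes without a peak, noncoding and tRNA genes and recorded elements were named after their values had been seen. The gene lists, words and the peaks themselves were chosen with earlier results of these data known. No test was made, since the list holds no replicates.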

Additional observations from a re-analysis of the deposited data

How the results depend on the processing

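The list has no scores and names no sample, so no replicate could be left out, and width stood in for a stricter list. No paired analysis was possible because the deposited list carries no values per sample. Across 13 settings, 57 of 76 values moved by less than their 95% interval. The density at enhancer distance over that beyond 50 kb, 3.28, was 3.46 with all annotated gene bodies left out. It was 3.56 for peaks under 50% soft-masked and 3.07 from 20 to 50 kb. For peaks from 10 to 100 kb the ratio was 3.95, but there it was taken over the density beyond 100 kb. The 3.95 is therefore not like for like with 3.28. The composite core share, 2.73%, was 1.97% in peaks under 50% soft-masked, 1.30% in the central 100 bp and 3.55% in the central 300 bp (tiles of those lengths held 0.244 and 0.768%). The share of peaks whose nearest gene has a promoter peak, 54.2%, was 60% when every protein-coding transcript start was used. Peaks at least as wide as the list's median, 223 bp, had a median width of 349 bp by construction, 50.5% GC, 56.4% with such a nearest gene, 52.4% with a neighbour within the stitching distance and 23.1% at another gene. The share with a neighbour, 66.5%, was 63.7% in peaks under 50% soft-masked, 64.6% without copies, 64.6% from 20 to 50 kb, 64.8% from 10 to 100 kb and 49.4% within 5 kb. The share at another gene, 21.2%, was 6.28% with all gene bodies left out, by construction. For core pluripotency genes the share with a peak, 60.7%, was 53.6% in the wide peaks and 43.5% from 20 to 50 kb. It stayed within its interval in every setting, but that interval was wide (40.6 to 78.5%) and could hardly be left. The density ratio of these genes ranged from 3.23 to 5.14. For super-enhancer genes it ranged from 4.73 to 6.04. The ratio moved by over 1.5 times for heat shock genes (3.89, but 2.34 in the wide peaks), p53 targets (1.96, but 1.13 from 20 to 50 kb), PML body genes (1.57, but 0.593 with all gene bodies left out and 0 from 20 to 50 kb) and differentiated tissues (0.818, but 0.335 in peaks under 50% soft-masked), which have 3 to 14 peaks each. The causes of the other shifts were not tested.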
